A study of Macaca mulatta with 4 samples.

Results

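MS4A7+ monocytes are the nonclassical monocytes of rhesus macaque blood as the depositing authors labelled them, and 478 of 6993 labelled cells carried that label. They were chosen by the deposited label alone, with no marker threshold added. The cells were peripheral blood mononuclear cells, profiled by single-cell RNA sequencing in a study of transplanted islets made from human pluripotent stem cells. There were 4 blood draws and 1 library for each. Pre-IS was drawn ahead of any immunosuppression. Post-IS was drawn under immunosuppression but ahead of the graft. The 4 wpt and 8 wpt draws came 4 and 8 weeks post-transplantation. The sources used here do not name the immunosuppressive drugs, give the age of the animal or say whether 1 animal gave all the draws. The question the design puts to these cells is how a recipient's nonclassical monocytes differ between the draws.

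Nonclassical monocytes are the monocytes that carry the low-affinity Fc receptor CD16 (gene FCGR3) and little or no CD14. They are known, mostly from human and mouse work, for patrolling along the vessel wall through the fractalkine receptor CX3CR1 and the integrin LFA-1, and they depend on signals through the CSF-1 receptor. Classical monocytes, labelled CD14+ in these tables, carry CD14 and the S100A8 and S100A9 proteins and are held to give rise to nonclassical ones. C1q is the recognition part of the classical complement pathway and is built from the chains encoded by C1QA, C1QB and C1QC, which monocytes and macrophages make themselves.

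By draw, the label covered 75 (Pre-IS), 131 (Post-IS), 207 (4 wpt) and 65 (8 wpt) cells. Their summed depth was 100047, 137874, 476727 and 145638 UMIs in time order (a UMI, or unique molecular identifier, stands for 1 captured RNA molecule). The median cell had 1111, 822, 1945 and 2023 UMIs, and mitochondrial genes took 1.497, 2.29, 1.99 and 1.30% of the UMIs. A gene level is the UMIs of the gene summed over MS4A7+ cells per 1000000 UMIs of those cells (CPM). A count of 0 allows up to 30.0 CPM at Pre-IS, 21.8 at Post-IS, 6.29 at 4 wpt and 20.6 at 8 wpt, taking a floor of 3 counts. Every interval is a 95% interval for counting error only. It leaves out that the UMIs of a gene cluster in some cells, so it can be too narrow. With 1 library per draw there is no spread between replicates and no test, and draw, treatment, animal and library cannot be told apart. Libraries shared 25 cell barcodes over all pairs. Of these, 3 had the MS4A7+ label in 1 of the pair and 0 had it in both.

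Of the markers named for the label, MS4A7, FCGR3 and CSF1R were higher in MS4A7+ than in CD14+ monocytes of each library, and C1QA was not. C1QA was 8.56-fold (4.39 to 17.2) higher in MS4A7+ cells for Pre-IS, 2.26-fold (1.12 to 4.48) for Post-IS and 9.005-fold (5.89 to 13.8) for 8 wpt. In the 4 wpt library it was 2.23-fold lower in MS4A7+ cells (1.04 to 5.49), with 16.8 CPM, against 37.4 CPM in CD14+ monocytes. MS4A7, the membrane protein that names the label, had levels in MS4A7+ cells of 840 (Pre-IS), 791 (Post-IS), 931 (4 wpt) and 570 CPM (8 wpt), against 32.8, 60.2, 27.2 and 39.5 CPM in CD14+ monocytes of those libraries. FCGR3 stood at 1399, 1146, 1642 and 1257 CPM, against 78.4, 165, 77.4 and 110 CPM in CD14+ monocytes. CDKN1C, a cell cycle inhibitor known as a marker of human CD16+ monocytes, was the cleanest separator of the labels. It had 350, 522, 461 and 172 CPM in MS4A7+ cells, and 0, 8.92, 0.851 and 0 CPM in CD14+ monocytes. CSF1R was less than 2-fold higher in each library, and its interval reached below 1 for Post-IS (0.973 to 1.67), with 880, 573, 629 and 659 CPM, against 555, 448, 376 and 392 CPM in CD14+ monocytes. On the other side, CD14 had 49.98, 43.5, 21.0 and 27.5 CPM in MS4A7+ cells, against 883, 954, 651 and 630 CPM. S100A8 had 12, 5, 12 and 2 UMIs in all MS4A7+ cells of a library, 11 of the 12 Pre-IS ones in a single cell, and S100A12 had 0 UMIs in all 4 libraries. Where cells were thinned to 1000 UMIs each, FCGR3 was seen in 71.4% of MS4A7+ cells at Pre-IS (95% exact interval 55.4 to 84.3), 60.0% at Post-IS (45.9 to 73.0), 70.9% in the 4 wpt library (63.7 to 77.5) and 66.7% in the 8 wpt library (52.5 to 78.9). These intervals overlap. MS4A7 itself was seen in 61.9% (45.6 to 76.4), 47.3% (33.7 to 61.2), 59.2% (51.6 to 66.5) and 35.2% (22.7 to 49.4) of thinned MS4A7+ cells in time order. The 8 wpt and 4 wpt intervals do not overlap at this depth. At 500 UMIs per cell they overlap, with 33.8% at 8 wpt (22.6 to 46.6) and 31.4% at 4 wpt (25.1 to 38.2). Unthinned they also overlap, with 61.5% (48.6 to 73.3) and 72.9% (66.4 to 78.9). T cells thinned to 1000 UMIs had an MS4A7 UMI in 0, 0, 0.117 and 0% of cells. Thinning left out 33, 76, 28 and 11 shallower cells, and unthinned the FCGR3 shares were 74.7, 57.3, 87.0 and 87.7%. In thinned T cells, with a median depth of 1526, 1257, 3626 and 1810 UMIs before thinning, FCGR3 was seen in 2.39, 0, 1.05 and 2.23%.

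**Figure D1:**
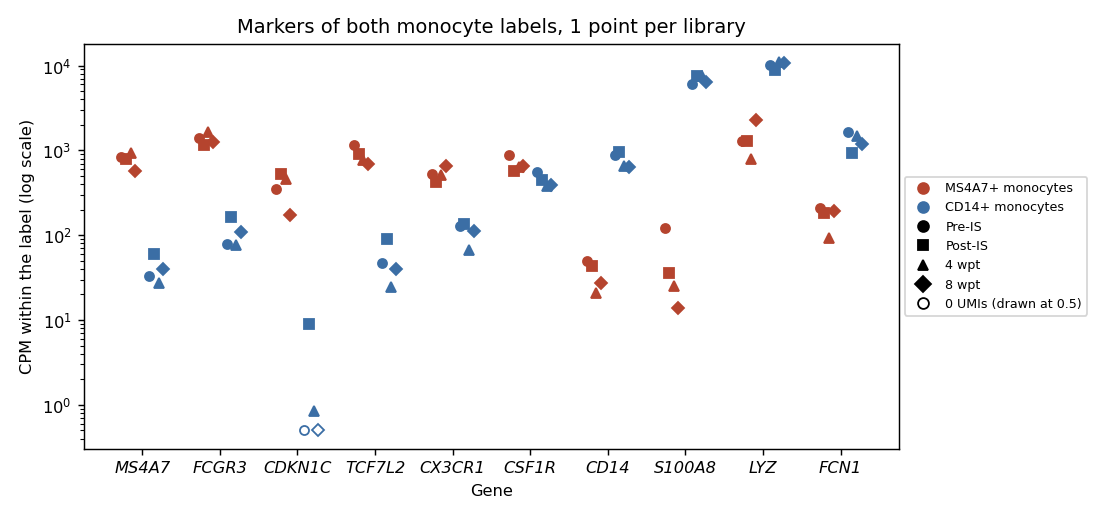
Level of 10 marker genes (CPM within the label, log axis) in MS4A7+ monocytes and CD14+ monocytes, 1 point per library, with a hollow point where no UMI was counted. MS4A7, FCGR3, CDKN1C and TCF7L2 lie apart without overlap between the labels, S100A8 lies apart the other way, and CSF1R is less than 2-fold higher in MS4A7+ cells of each library.

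Set against CD14+ monocytes of the same library, MS4A7+ cells had more RNA of CDKN1C, PLD4, LPL and the integrin chains ITGAX and ITGAL in every draw, and less of S100A8, S100A9 and FN1. Of 3494 genes with at least 20 UMIs over both labels in each library, 168 (4.81%) were at least 2-fold higher in MS4A7+ cells in all 4 libraries and 110 (3.15%) were at least 2-fold lower in all 4. The labels were made from the expression of these same cells, so the ratios describe the label and test nothing. The median log2 ratio over all genes was 0.22 at Pre-IS, 0.19 at Post-IS, 0.26 at 4 wpt and 0.13 at 8 wpt. Next to CDKN1C, ranked by the lowest interval bound over the libraries, stood PLD4, a lysosomal exonuclease, which was 23.0 to 141-fold higher over the 4 libraries, and LPL, lipoprotein lipase, which was 21.9 to 110-fold higher. CTSD, the lysosomal protease cathepsin D, was 11.5 to 13.1-fold higher. TCF7L2, a transcription factor of the Wnt pathway, was 10.0 to 31.4-fold higher. ITGAX, the integrin chain CD11c, was 8.75 to 17.1-fold higher, and ITGAL, the LFA-1 chain, was 6.57 to 10.2-fold higher. ADA (adenosine deaminase), BTLA (an inhibitory receptor better known on lymphocytes) and GUCY1A1 (a subunit of the nitric oxide receptor guanylate cyclase) complete the list of the 12 highest, with ratios of 13.0, 16.7 and 11.2 in the library where each was lowest. The group of the 12 lowest was led by S100A8 and S100A9, which were 50.3 to 460-fold and 70.1 to 279-fold lower. FN1 (fibronectin) was 18.3 to 134-fold lower, FOS 5.96 to 39.2-fold lower and LYZ (lysozyme) 4.68 to 13.7-fold lower.

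Counts in lists of genes grouped by role stand beside 4.81% of all genes at least 2-fold higher in all 4 libraries and 3.15% lower. The nonclassical and classical lists hold markers of the labels, and the lists were chosen with earlier results known. The counts therefore describe the labels and test nothing. Of 19 measured nonclassical monocyte genes, 12 were at least 2-fold higher in all 4 libraries and 0 were as far lower in all 4. By the same rule, 13 of 16 classical monocyte genes were lower and 0 were higher. Some members went the other way in each library without passing 2-fold in all 4. In the nonclassical list SERPINA1 was 1.72 to 3.103-fold lower and IFITM2 1.39 to 5.04-fold lower. In the classical list CD93 was 1.28 to 2.04-fold higher. For IFITM2 at Pre-IS and CD93 at 8 wpt the interval included 1. The adhesion and chemokine receptor list divided, with 8 of 20 genes higher and 5 lower. SPN, the sialoglycoprotein CD43, was 5.42 to 9.29-fold higher. CCR2, the receptor that classical monocytes use to leave the marrow, had 0, 0, 1 and 2 UMIs in MS4A7+ cells. Among 30 lysosomal genes 4 were higher and 1 lower, and among 10 type I interferon genes 0 were past 2-fold in all libraries. Of 11 MHC class II genes 1 was higher and 0 were lower, with a median log2 ratio of -0.52, -0.51, -0.78 and -0.42 in time order.

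Relative to all monocytes, the MS4A7+ label was most common 4 weeks after the transplant. It made up 22.7% of the monocytes at Pre-IS (18.3 to 27.6), 28.5% at Post-IS (24.4 to 32.8), 39.9% in the 4 wpt draw (35.6 to 44.2) and 15.8% in the 8 wpt draw (12.4 to 19.7). The 4 wpt share lay above the others without overlap of intervals. The Pre-IS interval overlapped the Post-IS interval at its upper end and the 8 wpt interval at its lower end. At 8 wpt the share was 2.52-fold lower than at 4 wpt, with 65 of 411 monocytes against 207 of 519. The order differs from that among all labelled cells, where Post-IS was highest at 21.7% of 603 cells and 4 wpt followed with 207 of 1882 cells. MS4A7+ cells were shallower than CD14+ monocytes in each library, with medians of 1111, 822, 1945 and 2023 UMIs, against 2059, 1196, 3190 and 2854 UMIs. Among cells with at least 1000 UMIs the label took 2.50% of all Pre-IS cells, against 3.89% with all cells counted. The part of depth in these shares was not tested otherwise.

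**Figure D2:**
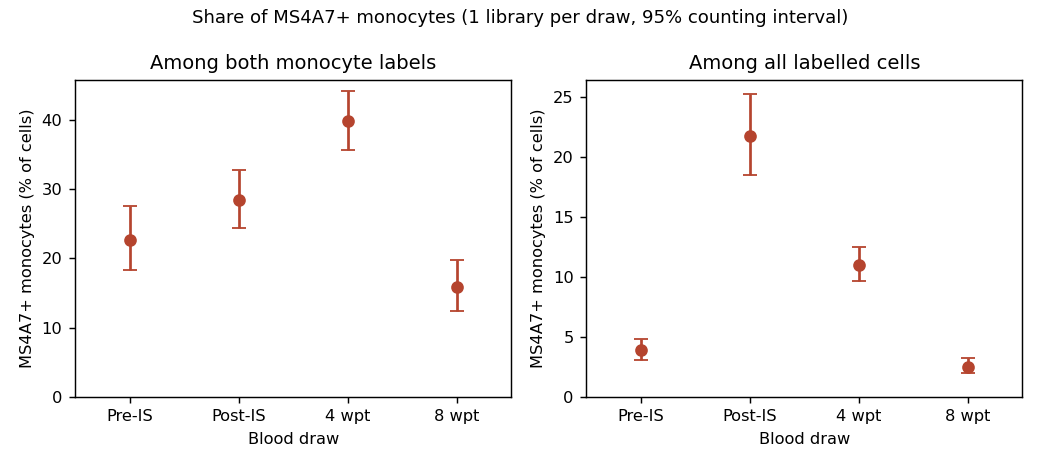
Share of MS4A7+ monocytes (percent, y axis) among monocytes of both labels and among all labelled cells, by blood draw, with exact 95% counting intervals and 1 library per draw. Among monocytes the 4 wpt share of 39.9% is highest and the 8 wpt share of 15.8% is lowest.

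The C1q chains were lowest 4 weeks after the transplant and higher at 8 weeks, where their summed interval overlapped that of Pre-IS. C1QA stood at 250 CPM at Pre-IS (25 UMIs), 116 at Post-IS (16 UMIs), 16.8 at 4 wpt (8 UMIs) and 364 at 8 wpt (53 UMIs). C1QB stood at 720, 479, 233 and 831 CPM in these draws. C1QC stood at 310, 167, 81.8 and 412 CPM. Summed, the 3 chains gave 1279 CPM at Pre-IS (1067 to 1521), 762 at Post-IS (623 to 922), 331 in the 4 wpt cells (282 to 387) and 1607 in the 8 wpt cells (1407 to 1826). In CD14+ monocytes C1QA stood at 29.2, 51.3, 37.4 and 40.4 CPM, C1QB at 21.9, 109, 36.6 and 58.7 CPM and C1QC at 12.8, 53.5, 39.1 and 45.2 CPM. Post-IS was thus the highest draw in CD14+ monocytes and 8 wpt in MS4A7+ cells. T cells had 0 UMIs of C1QA, C1QB and C1QC in all 4 libraries. C1QA is one of the markers of the label, so its presence in these cells is no finding.

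C1q sat in a minority of MS4A7+ cells. At least 1 C1q UMI was counted in 18 of 75 cells at Pre-IS, 14 of 131 at Post-IS, 26 of 207 at 4 wpt and 14 of 65 at 8 wpt. With each cell thinned to 1000 UMIs the shares were 23.8% (12.1 to 39.5), 12.7% (5.27 to 24.5), 11.7% (7.41 to 17.4) and 22.2% (12.04 to 35.6), and these intervals overlap. Thinned CD14+ monocytes had a C1q UMI in 3.62, 4.28, 1.41 and 3.59% of cells, and 0 of 753, 85, 854 and 1122 thinned T cells had one. A count of 0 allows a share of cells with a UMI of up to 0.398, 3.53, 0.351 and 0.267% of these T cells (3 counts of the total). Without thinning, a cell with C1q held 7.11 C1q UMIs on average at Pre-IS, 7.50 at Post-IS, 6.08 at 4 wpt and 16.7 at 8 wpt, with medians of 6, 2.50, 2 and 10.5. At least 10 C1q UMIs were counted in 6, 3, 5 and 9 cells. The C1q cells had a median depth of 1185, 1077, 2289 and 2597 UMIs, above that of the other MS4A7+ cells, which had 1106, 805, 1886 and 1908. The UMIs per cell therefore also carry the depth. Within the C1q cells the 3 chains took 5518, 6157, 2237 and 5782 CPM, lowest in the 4 wpt library and between 5518 and 6157 CPM in the other 3. For Post-IS, 33 of the 66 C1QB UMIs came from a single cell. Of the C1q cells, 0, 0, 1 and 1 were possible doublets by the rule given at the end of the results, and they held 1, 2, 3 and 1 UMIs of CD14, S100A8, S100A9 and S100A12 together.

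**Figure D3:**
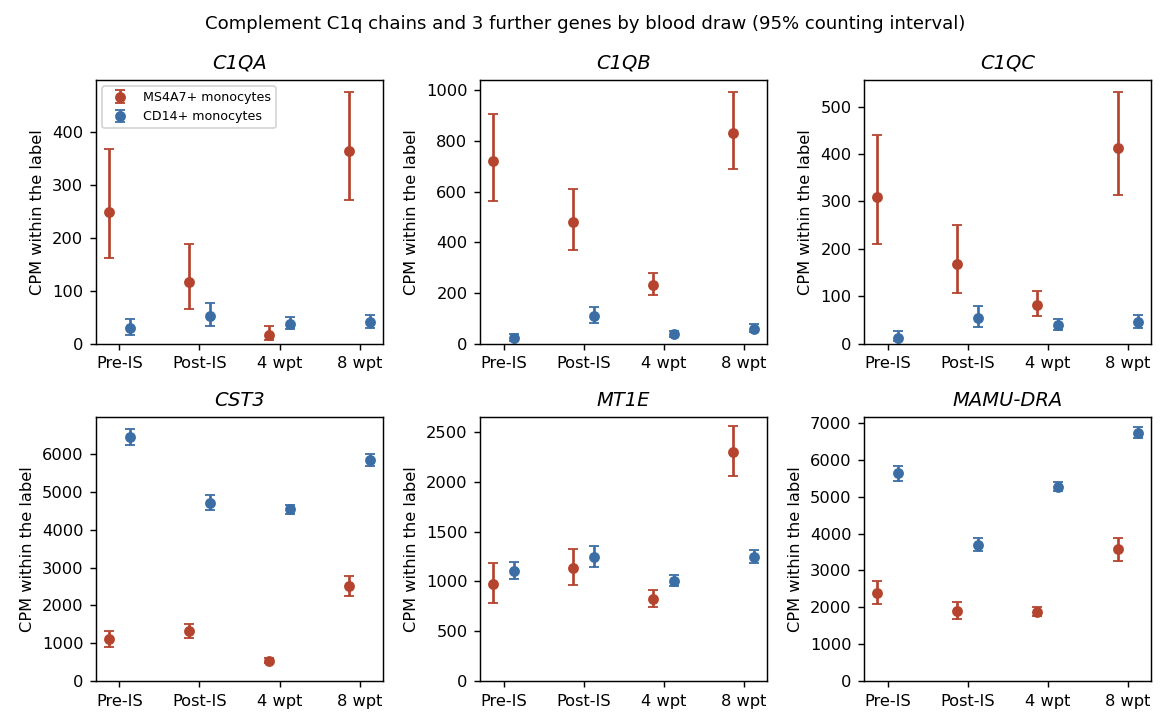
Level (CPM within the label, y axis) of C1QA, C1QB, C1QC, CST3, MT1E and MAMU-DRA in MS4A7+ and CD14+ monocytes by blood draw, 1 library per draw, with exact 95% Poisson intervals. C1QA in MS4A7+ cells is 16.8 CPM at 4 wpt and 364 CPM at 8 wpt, and between 29.2 and 51.3 CPM in CD14+ monocytes throughout.

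The comparison of Post-IS with Pre-IS covers the start of immunosuppression. Some genes known to be induced by glucocorticoids, FKBP5 among them, were higher in Post-IS cells. Of 2055 genes with at least 20 UMIs over both libraries, 134 (6.52%) lay 2-fold or more above and 65 (3.16%) as far below, and the median log2 ratio was 0.02. Counting error alone can carry a gene of 20 UMIs past 2-fold, so genes were picked from all genes only where the interval lay beyond 1.5-fold. Among genes that met the other naming rules, given with the processing, this held for 14 higher and 3 lower genes. Members of the lists, here and below, were described whether or not they met that bound, so counting error weighs more on those inside it. FKBP5, a chaperone of the glucocorticoid receptor, stood at 341 CPM (47 UMIs), against 49.98 CPM (5 UMIs), which is 6.82-fold higher (2.72 to 22.0). The glucocorticoid list had 5 of 12 measured genes at least 2-fold higher, 0 lower and a median log2 ratio of 0.80. The other 4 were CD163, TSC22D3, TXNIP and SGK1. CD163, the hemoglobin scavenger receptor, was 4.11-fold higher (1.71 to 11.98) here, and it was between 2.63 and 4.73-fold lower in MS4A7+ than in CD14+ monocytes of each library. VCAN, a classical monocyte marker, moved with it, at 363 CPM (50 UMIs in 36 cells), against 120 CPM (12 UMIs in 9 cells), 3.02-fold higher (1.59 to 6.24). It was the 1 gene of 6 measured in the classical list that lay past 2-fold, and that list had a median log2 ratio of 0.08 and summed to 3068 CPM at Post-IS, against 2789 CPM at Pre-IS. The part of classical monocytes in these ratios was not tested. SGK1, a kinase of ion transport, stood at 348 CPM, against 150 CPM, 2.32-fold higher (1.28 to 4.46). In CD14+ monocytes SGK1 was 3.96-fold higher and FKBP5 1.80-fold higher.

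Several genes outside that list were higher in Post-IS cells too. FCHO2, which shapes membranes for endocytosis, was 5.08-fold higher (1.98 to 16.6), with 35 UMIs in 33 cells, against 5 UMIs in 5 cells. HSPA8, a constitutive heat shock protein, was 2.61-fold higher (1.80 to 3.86), from 133 UMIs, against 37. ISG20, an interferon-induced exonuclease, was 3.18-fold higher (1.72 to 6.34), from 57 UMIs, against 13, although only 1 of 9 measured type I interferon genes was past 2-fold upwards and 1, IFI35, downwards. CNOT7, part of the deadenylase that shortens mRNA tails, had 21 UMIs, against 2, and SCP2, a sterol carrier, had 27 UMIs, against 4. LAMP2, a lysosomal membrane protein, stood at 203 CPM, against 49.98 CPM, 4.06-fold higher (1.55 to 13.5). NOTCH2, a receptor needed for nonclassical monocytes in mice, stood at 457 CPM, against 200 CPM, 2.29-fold higher (1.36 to 3.99). The nonclassical list itself had 0 of 18 genes higher and 2 lower, C1QA and IFITM2, and a median log2 ratio of -0.27. The list of MHC class II genes had 0 of 9 past 2-fold either way and a median of -0.25. It summed to 24537 CPM at Post-IS, against 30116 CPM at Pre-IS. These list counts stand beside 6.52% of all genes higher and 3.16% lower. In Post-IS cells the platelet list had a summed level of 145 CPM, against 19.99 CPM in Pre-IS cells, with 9 UMIs of PPBP in 2 cells, 8 of them in 1 cell. The part of platelet RNA in these ratios was not tested.

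The comparison of 4 wpt with Post-IS spans the transplant. TNF and LBH were higher at 4 wpt, and TIMP1, FOS, LST1, CST3 and C1QA were lower. The comparison shares its Post-IS library with the comparison above, so a high or low Post-IS value enters both. Of 4617 genes measured, 413 (8.95%) lay 2-fold or more above and 188 (4.07%) as far below, and the median log2 ratio was -0.02. The 4 wpt cells held 476727 UMIs, against 137874. With the 4 wpt UMIs thinned to the Post-IS total, 129 genes were higher and 154 lower out of 2470, so the excess of higher genes depended on the total UMIs. Past the 1.5-fold bound there were 15 higher and 33 lower genes among those that met the other naming rules. TNF, the inflammatory cytokine, had 84 UMIs in 54 of 207 cells at 4 wpt, against 2 UMIs in 2 of 131 cells at Post-IS. That is 176 CPM, against 14.5 CPM, 12.1-fold higher (3.26 to 102). The Pre-IS level was 100 CPM, from 10 UMIs in 8 cells. LBH, a transcriptional cofactor, was 5.49-fold higher (2.06 to 20.7), from 76 UMIs, against 4, and HRH2, a histamine receptor, was 3.88-fold higher (1.58 to 12.3). ATRX, a chromatin remodeller, was 4.99-fold higher (1.86 to 18.8). The genes ZNF700, ERGIC1, UBR1 and WDR6 had 24, 23, 23 and 23 UMIs, against 0 each, so they were at least 2.31, 2.22, 2.22 and 2.22-fold higher. In CD14+ monocytes TNF was 1.65-fold and LBH 6.11-fold higher in the same comparison.

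On the lower side stood TIMP1, an inhibitor of matrix proteases, which was 4.11-fold lower (3.38 to 5.01), and FOS, the immediate early factor, which was 4.94-fold lower (3.14 to 7.84). LST1, a leukocyte protein that marks nonclassical monocytes, stood at 543 CPM, against 1422 CPM, 2.62-fold lower (2.16 to 3.16), and it was also lower in CD14+ monocytes, at 92.7 against 341 CPM. PDK4, a kinase that spares glucose and responds to glucocorticoids, was 5.62-fold lower (2.16 to 15.6). CST3, the protease inhibitor cystatin C, was 2.44-fold lower (2.002 to 2.96), at 539 CPM, against 1313 CPM. TAGLN2, an actin-binding protein, was 3.40-fold lower (2.32 to 4.98) and PADI4, which converts arginine in histones to citrulline, was 8.07-fold lower (2.91 to 25.6) on 6 UMIs, against 14. Of 17 glucocorticoid genes 8 were lower and 1, SLA, was higher, with a median log2 ratio of -0.68. FKBP5 was not among the 8, at 245 CPM, against 341 CPM, and ZBTB16, another direct glucocorticoid target, had 19 UMIs in 18 cells, against 5 UMIs in 5 cells. Of 18 type I interferon genes 4 were higher (OAS2, STAT2, EPSTI1 and PLSCR1) and 0 lower, with a median of 0.16. These list counts stand beside 8.95% of all genes higher and 4.07% lower. With the 4 wpt UMIs thinned to the Post-IS total, 129 of 2470 genes were higher and 154 lower. VCAN was 3.39-fold lower (2.25 to 5.11). C1QA was 6.92-fold lower (2.79 to 18.7), and 5.86-fold (1.93 to 19.6) without the cell of each library that held most of its UMIs. C1QB and C1QC were also past 2-fold with all cells, but without such a cell they were 1.31-fold (0.853 to 1.98) and 1.58-fold lower (0.778 to 3.06), so neither was then past 2-fold.

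The comparison of 8 wpt with 4 wpt lies within the time after the transplant. It shares its 4 wpt library with the comparison of 4 wpt with Post-IS, so a high or low 4 wpt value enters both. The C1q chains, CST3, LYZ, LIPA and MT1E were higher at 8 wpt, and FKBP5, DUSP1, TNF and LBH were lower. Of 4584 genes measured, 142 (3.1%) lay 2-fold or more above and 633 (13.8%) as far below, and the median log2 ratio was -0.11. With median of ratios scaling that median was 0.03, and 219 genes were higher and 483 lower. With the 4 wpt UMIs thinned to the 8 wpt total, 110 were higher and 207 lower. Past the 1.5-fold bound there were 33 higher and 46 lower genes among those that met the other naming rules. C1QA was 21.7-fold higher (10.2 to 52.8), C1QC 5.04-fold (3.31 to 7.74) and C1QB 3.57-fold (2.74 to 4.66). Without the top cell of each library these were 23.9, 5.11 and 3.79-fold. CST3 was 4.65-fold higher (3.95 to 5.47), with 2506 CPM at 8 wpt, against 539 CPM at 4 wpt, and was counted in 43 of 65 cells, against 101 of 207. LYZ was 2.86-fold higher (2.46 to 3.32) with levels of 2280 and 797 CPM at 8 wpt and 4 wpt, and FCN1, the lectin ficolin-1, was 2.08-fold higher (1.25 to 3.42). LIPA, the lysosomal acid lipase, was 4.17-fold higher (2.30 to 7.64), from 28 UMIs in 14 cells, against 22 UMIs in 19 cells. MT1E, a metallothionein that binds zinc and copper, was 2.78-fold higher (2.40 to 3.23) with 2300 CPM at 8 wpt, against 826 CPM at 4 wpt, and 67 of its 335 UMIs at 8 wpt came from 1 cell. Without the top cell of each library MT1E was 2.37-fold higher. Metallothionein genes are near copies of each other, so reads may have been split between them, but MT2A went the same way at 1483 CPM, against 753 CPM. VAMP5, a vesicle fusion protein, was 3.90-fold higher (2.09 to 7.32) and TNFRSF21, the death receptor DR6, was 3.53-fold higher (1.99 to 6.26).

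These genes were also higher outside the C1q cells. In MS4A7+ cells without a C1q UMI, 8 wpt against 4 wpt gave 4.03-fold for CST3 (3.35 to 4.85), 2.46-fold for LYZ (2.06 to 2.93), 2.26-fold for MT1E (1.89 to 2.69) and 3.13-fold for LIPA (1.55 to 6.22). In CD14+ monocytes the ratios were 1.29 for CST3, 0.980 for LYZ, 1.24 for MT1E and 1.89 for LIPA. LYZ, CST3 and FCN1 are high in CD14+ monocytes, where LYZ stood at 10676 CPM at 8 wpt. In MS4A7+ cells the classical list summed to 3694 CPM at 8 wpt, against 1984 CPM at 4 wpt, and LYZ and FCN1 were past 2-fold upwards among its 7 measured genes. Its median log2 ratio was 0.55 and 0 genes were past 2-fold downwards. VCAN was 1.80-fold higher (1.09 to 2.90), on 28 UMIs, against 51. CD14 had 4 UMIs, against 10, and S100A8 had 2, against 12. The part of classical monocytes in the result was not tested. Dendritic cells also carry MHC class II and CST3. The summed level of 10 dendritic cell genes in MS4A7+ cells was 19.99 CPM at Pre-IS, 50.8 at Post-IS, 42.0 at 4 wpt and 96.1 at 8 wpt, from 14 UMIs at 8 wpt. Of FLT3, FCER1A, CD1C and CLEC9A together, 6 UMIs lay in C1q cells at 8 wpt and 1 in the rest. The part of dendritic cells was not tested either.

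Several MHC class II genes were higher at 8 wpt by less than 2-fold, so they were not counted as higher. MAMU-DRA, the alpha chain of the DR molecule, stood at 2379 CPM at Pre-IS, 1900 at Post-IS, 1871 at 4 wpt and 3571 at 8 wpt, which is 1.91-fold (1.71 to 2.13) at 8 wpt against 4 wpt. MAMU-DRB1 was 1.79-fold higher (1.64 to 1.96), though DRB genes are near copies whose reads may be split. CD74, which guides class II molecules to the lysosome, was 1.43-fold higher (1.37 to 1.49), and IFI30, a lysosomal thiol reductase that opens antigens for loading, 1.66-fold (1.44 to 1.92). The list had a median log2 ratio of 0.47 with 0 of 11 genes higher and 2 lower. Those 2 were the regulators CIITA, with 2 UMIs, against 22, and RFX5, with 3 UMIs, against 30. The list counts stand beside 3.1% of all genes higher and 13.8% lower, so they are not read against the median. In CD14+ monocytes MAMU-DRA was 1.28-fold higher in the same comparison.

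On the lower side at 8 wpt, FKBP5 stood at 27.5 CPM, against 245 CPM, 8.94-fold lower (3.40 to 33.3), and ZBTB16 had 0 UMIs, against 19. DUSP1, the phosphatase that shuts off MAP kinases, was 3.26-fold lower (2.22 to 4.94) and BIRC3, an inhibitor of apoptosis, 7.33-fold lower (1.92 to 62.3). TNF was 5.13-fold lower (2.11 to 16.2) with 5 UMIs, against 84. LBH was 11.6-fold lower (3.11 to 97.6), BCL2A1, a survival protein induced by NF-kB, 3.30-fold lower (2.17 to 5.24), and MDM2, the ligase that degrades p53, 4.43-fold lower (1.95 to 12.4). CDKN1C was 2.69-fold lower (1.77 to 4.25). NT5DC1 and PPP2R2D had 0 UMIs, against 30 and 25, so they were at least 3.06 and 2.55-fold lower. The list counts that follow stand beside 13.8% of all genes lower, and 207 of 2431 genes lower with the 4 wpt UMIs thinned to the 8 wpt total. Of 14 glucocorticoid genes 6 were lower and 0 higher, with a median of -0.50. Of 18 type I interferon genes 5 were lower and 0 higher, with a median of -0.57. Of 12 genes of the NF-kB and cytokine list 4 were lower (TNF, NFKBIA, REL and SOD2) and 0 higher, and of 14 Fc receptor and signalling genes 4 were lower (PLCG2, BTK, INPP5D and VAV1) and 2 higher (FCGR2A and FCGRT). FCGR2A, another Fc receptor, stood at 117 CPM, against 39.9 CPM, 2.93-fold higher (1.43 to 5.95). In CD14+ monocytes the ratio of 8 wpt to 4 wpt was 0.474 for FKBP5, 1.04 for TNF and 0.521 for BCL2A1.

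**Figure D4:**
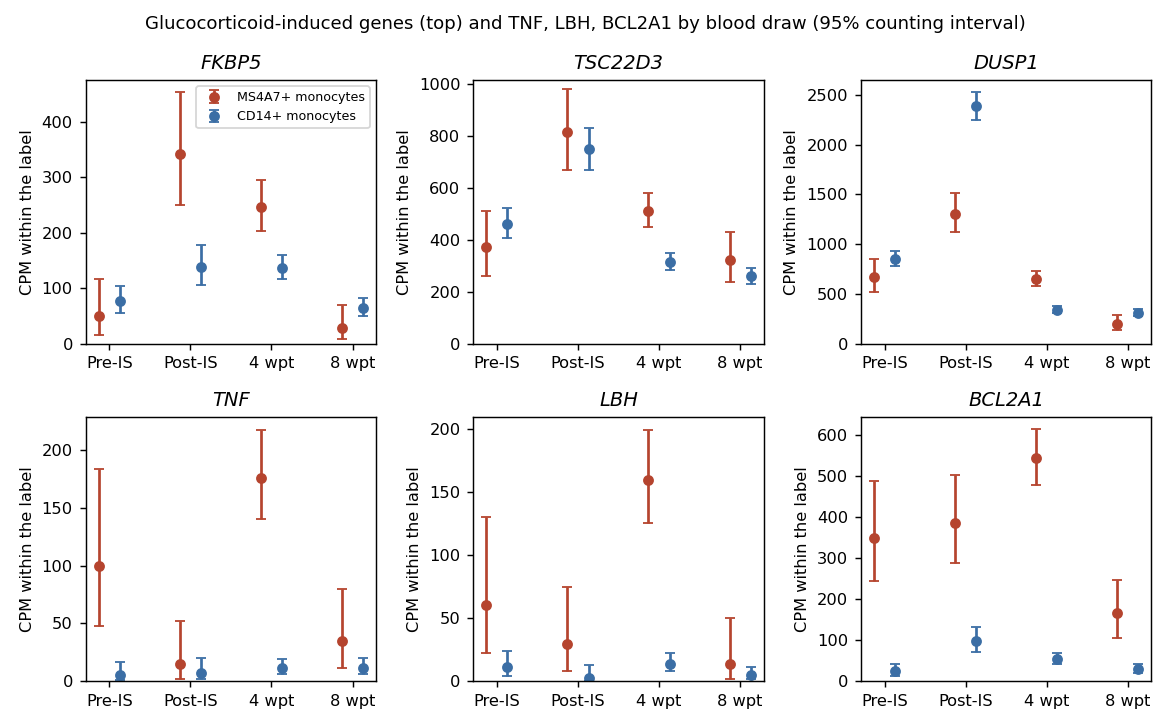
Level (CPM within the label, y axis) of the glucocorticoid-induced genes FKBP5, TSC22D3 and DUSP1 and of TNF, LBH and BCL2A1 in MS4A7+ and CD14+ monocytes by blood draw, 1 library per draw, with exact 95% Poisson intervals. FKBP5 in MS4A7+ cells is 341 CPM at Post-IS and 245 CPM at 4 wpt, against 49.98 CPM at Pre-IS and 27.5 CPM at 8 wpt, and TNF is highest at 176 CPM at 4 wpt.

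Seen over all 4 draws, the glucocorticoid genes FKBP5, TSC22D3, TXNIP, DUSP1 and DDIT4 had their highest level at Post-IS, DDIT4 by little. Their courses otherwise differed. FKBP5 stood at 49.98, 341, 245 and 27.5 CPM and was higher in the Post-IS and 4 wpt draws than in the other 2. ZBTB16 had 0, 5, 19 and 0 UMIs, or 36.3 and 39.9 CPM at Post-IS and 4 wpt, where 3 counts stood for 30.0 CPM at Pre-IS and 20.6 CPM at 8 wpt. TSC22D3, the leucine zipper protein GILZ, stood at 370, 812, 510 and 323 CPM. TXNIP, which binds thioredoxin and limits glucose uptake, stood at 1070, 2205, 793 and 934 CPM and was high at Post-IS alone. DUSP1 stood at 670, 1306, 648 and 199 CPM, and DDIT4, an inhibitor of mTORC1, at 190, 203, 71.3 and 20.6 CPM. Both were lowest at 8 wpt, as were FKBP5 and TSC22D3. TNF took another order, at 100, 14.5, 176 and 34.3 CPM, with overlapping intervals between Pre-IS (47.9 to 184) and 4 wpt (141 to 218). BCL2A1 stood at 350, 384, 543 and 165 CPM.

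The comparison of 8 wpt with Pre-IS asks how far the last draw lay from the first. Both of its libraries also enter comparisons above. MT1E, CST3 and COX7B were higher at 8 wpt, and DDIT4, DUSP1 and GRAMD1A were lower. Of 2039 genes measured, 77 (3.78%) lay 2-fold or more above and 115 (5.64%) as far below, and the median log2 ratio was -0.05. Under edgeR TMM scaling the counts were 116 higher and 68 lower, with a median of 0.11. The balance of higher to lower thus depended on the scaling. Past the 1.5-fold bound there were 3 higher and 12 lower genes among those that met the other naming rules. The 3 higher genes were MT1E, 2.37-fold (1.89 to 3.01), CST3, 2.28-fold (1.84 to 2.85), and COX7B, a subunit of cytochrome c oxidase, 2.71-fold (1.57 to 4.92). LIPA was 3.85-fold higher (1.47 to 12.8) on 28 UMIs, against 5. The C1q chains were less than 2-fold apart, with C1QA at 364 CPM, against 250 CPM, and C1QB at 831 CPM, against 720 CPM. DDIT4 was 9.22-fold lower (2.71 to 48.6) and DUSP1 3.36-fold lower (2.15 to 5.39). GRAMD1A, which carries cholesterol between membranes, was 4.25-fold lower (2.15 to 8.98) and GRK6, a kinase that switches off G protein-coupled receptors, 2.66-fold lower (1.56 to 4.63). ARHGAP4 and CYTH4, regulators of small GTPases, were 2.51-fold (1.64 to 3.89) and 2.76-fold lower (1.54 to 5.09), and SLC2A6, a sugar transporter, 2.91-fold lower (1.58 to 5.56). SOD2, the mitochondrial superoxide dismutase, was 3.48-fold lower (2.45 to 5.02), but 77 of its 110 Pre-IS UMIs came from 1 cell, and without the top cell of each library it was 1.24-fold lower. The glucocorticoid list had 3 of 9 genes lower (DUSP1, DDIT4 and NFKBIA) and a median of -0.36. TCF7L2 stood at 1149 CPM at Pre-IS, 914 at Post-IS, 774 at 4 wpt and 687 at 8 wpt, the lowest in the last draw.

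**Figure D5:**
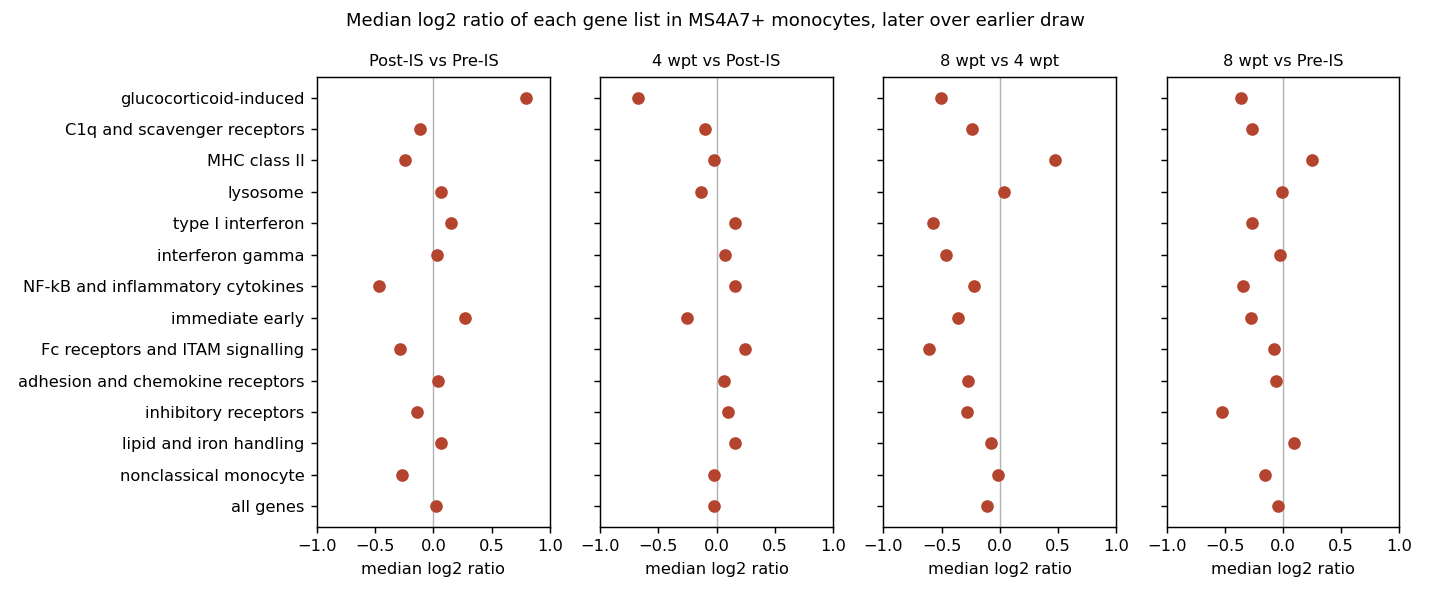
Median log2 ratio (x axis) of 13 gene lists and of all measured genes in MS4A7+ monocytes, in 1 panel per comparison of a later with an earlier draw, without intervals. The glucocorticoid list lies at 0.80 at Post-IS against Pre-IS and at -0.68 at 4 wpt against Post-IS, and MHC class II lies at 0.47 at 8 wpt against 4 wpt.

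The lists of surface receptors, lipid handling and transcription factors were short, and their counts are read beside 6.52, 8.95, 3.1 and 3.78% of all genes higher and 3.16, 4.07, 13.8 and 5.64% lower in the 4 comparisons. The adhesion and chemokine receptor list had 0 of 14, 0 of 16, 1 of 15 and 0 of 15 genes at least 2-fold higher and 0, 1, 0 and 0 lower. These counts and those that follow take the 4 comparisons in the order described above, from Post-IS set against Pre-IS to 8 wpt set against Pre-IS. The 1 higher gene was ITGAM, the integrin chain CD11b, at 220 CPM, against 105 CPM. CX3CR1 stood at 520, 428, 516 and 652 CPM over the draws and SPN at 490, 471, 545 and 494 CPM. The list of inhibitory receptors had 0 of 7, 0 of 10, 0 of 10 and 0 of 7 genes past 2-fold either way, with medians of -0.14, 0.10, -0.28 and -0.52. The lipid and iron list had 0 of 10, 3 of 13, 1 of 12 and 1 of 11 genes higher and 0, 0, 1 and 0 lower. Among the higher ones was FABP5, a fatty acid carrier, at 430 CPM at 4 wpt, against 203 CPM at Post-IS. The list of transcription factors and growth factor receptors had 3 of 17, 0 of 22, 0 of 24 and 1 of 17 genes higher and 0, 3, 0 and 1 lower.

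Cells of other types among the labelled ones were few but touched some genes. Cells with at least 2 UMIs of T, NK, B cell or platelet marker genes, called possible doublets here, numbered 4 of 75 at Pre-IS, 1 of 131 at Post-IS, 7 of 207 at 4 wpt and 5 of 65 at 8 wpt. The summed level of the 10 NK cell genes was 80.0, 7.25, 44.1 and 721 CPM in MS4A7+ cells. At 8 wpt all 46 UMIs of GZMB (granzyme B) and all 28 of GNLY (granulysin) lay in possible doublets, GZMB in 3 cells and GNLY in 4, and the rule for possible doublets itself counts GNLY. The 9 T cell genes summed to 120, 0, 39.9 and 192 CPM, with 6 UMIs of CD3D at 8 wpt in 1 cell. The 10 B cell genes summed to 60.0, 36.3, 25.2 and 13.7 CPM. The platelet genes summed to 19.99, 145, 35.7 and 82.4 CPM. HBA, a hemoglobin chain of red cells, had 25, 34, 72 and 48 UMIs and was the 1 red cell gene of 7 counted in each library. The neutrophil genes summed to 150, 116, 227 and 199 CPM, with 7, 7, 6 and 6 of 9 genes at 0. With the possible doublets left out, 133, 388, 137 and 69 genes were at least 2-fold higher and 63, 193, 604 and 90 lower in the 4 comparisons, and each of the 78 log2 ratios of named genes kept its direction within its counting interval.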

How the data were processed

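The authors deposited, per library, a table of raw UMI counts (15354 gene rows) and a cell type label per barcode. Libraries were 10x 5' V1 per the labels' protocols. Cell Ranger 3.1.0, Seurat 3.2.3 and build Mmul_10 are named per the submitters' processing notes. How cells were filtered, doublets treated and labels made is not given in the sources used here. Of 2559 rows with an identifier only, 400, C1QA among them, were named from the reference table.

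UMIs were summed over MS4A7+ cells of a library and scaled to CPM (Python 3.11.15, scipy 1.17.1). Ratios have exact conditional binomial intervals, levels exact Poisson, shares exact Clopper-Pearson, all at 95%. Genes needed 20 UMIs over both libraries, an offset of 0.5 UMIs entered log2 ratios, and with 0 UMIs on 1 side the fold was taken against 3 counts. The calculation was tested on simulated data. Up to 12 genes per direction and comparison were named, by the interval bound nearest 1, beyond 1.5-fold, with UMIs in 5% of cells and at 10% of the level in the highest class. By that rule no gene without a symbol and no ribosomal, mitochondrial, hemoglobin, immunoglobulin or T cell receptor gene was named. Members of the lists, and lists themselves, were also described, and members and lists were chosen with earlier results of these data known. TMM factors came from edgeR 4.0.16 (R 4.3.3). Cell barcodes were thinned to 1000 UMIs, shallower cells left out. No test between groups was made. Alternatives were other scalings, minimums, thresholds and depths, equal weight per cell and pooled monocyte labels. Results on some genes are not reported here.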

Additional observations from a re-analysis of the deposited data

Results flagged for a closer look

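GNLY, the cytotoxic granule protein granulysin, went in opposite directions in the labels under the same comparison, and the difference was not tested. For 8 wpt against 4 wpt its log2 ratio was 3.46 in MS4A7+ cells, on 28 UMIs, against 8, and -2.05 in CD14+ monocytes, on 16 UMIs, against 77. For 8 wpt against Pre-IS it was 2.97 in MS4A7+ cells, on 28 UMIs, against 2, and -2.22 in CD14+ monocytes, on 16 UMIs, against 40. All 28 GNLY UMIs of MS4A7+ cells at 8 wpt lay in 4 cells that count as possible doublets, by a rule that counts GNLY itself.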

How the results depend on the processing

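Counts of genes past 2-fold moved with the settings, while most named genes kept their value. Over 78 pairs of a named gene and a comparison and 1167 settings, 1105 kept the direction within the counting interval, and 825 of 835 settings of list medians were kept. Of the rest of the named genes, 46 fell under pooling of both monocyte labels and 16 elsewhere. With the labels pooled, the log2 ratio of CST3 for 8 wpt against Pre-IS was -0.051 and the classical monocyte median for 8 wpt against 4 wpt was -0.019, both turned in sign, and the cause was not tested. Counts below are higher, then lower, for Post-IS set against Pre-IS, then 4 wpt against Post-IS, then 8 wpt against 4 wpt, then 8 wpt against Pre-IS. Cells thinned to 1000 UMIs gave 61 and 29, 248 and 124, 92 and 291, 26 and 28. A minimum of 50 UMIs gave 29 and 5, 76 and 62, 39 and 159, 7 and 18. No minimum gave 1030 and 1114, 962 and 1048, 934 and 1218, 841 and 1296. A 1.5-fold threshold gave 379 and 266, 885 and 692, 518 and 1270, 265 and 343, and 3-fold gave 31 and 7, 131 and 35, 24 and 216, 13 and 16. Fewer UMIs or genes, or another threshold, enter these counts by construction. For 8 wpt with Pre-IS, TMM gave 116 and 68 and median of ratios 115 and 68, so 63.0 and 62.8% of the genes past 2-fold were higher, against 40.1% as reported. Median of ratios gave 219 higher for 8 wpt with 4 wpt. Weighting cells equally gave 104 lower for Post-IS with Pre-IS and 303 lower for 4 wpt with Post-IS. Pooled labels gave 326 and 217 for Post-IS with Pre-IS, 409 lower for 8 wpt with 4 wpt, and 185 and 199 for 8 wpt with Pre-IS. Alternatives chosen after seeing the data gave 51 higher for 8 wpt with Pre-IS without C1q cells and, with the deeper library thinned to the total UMIs of the shallower one, 129 higher for 4 wpt with Post-IS and 207 lower for 8 wpt with 4 wpt. Against CD14+ monocytes, thinned cells left 59 higher and 53 lower. Among cells of at least 1000 UMIs the share of all cells was 2.50% for Pre-IS and 15.7% for Post-IS. With monocytes as the base and no cut on depth, the shares were 22.7, 28.5, 39.9 and 15.8% in time order. At 500 UMIs per cell, MS4A7 was seen in 41.3% of Pre-IS, 31.4% of 4 wpt and 33.8% of 8 wpt cells. FCGR3 was seen at that depth in 42.7, 39.4, 54.1 and 38.5% in time order. CDKN1C was seen there in 20.2% of Post-IS and 17.9% of 4 wpt cells and C1q in 7.25% of 4 wpt cells. Unthinned, MS4A7 was seen in 72.9% of 4 wpt and 61.5% of 8 wpt cells, FCGR3 in 87.0 and 87.7%, and CDKN1C in 50.2% of 4 wpt cells. The values of the C1q chains without the top cell of each library were also chosen after seeing the data. No paired analysis was possible because each draw had 1 library and no replicate numbers.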
